A study of Mus musculus with 3 samples.

Results

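The inhibitors of NF-kB (IκB proteins) were described here as a family of 6 genes, chosen by symbol out of 55536 genes measured. They comprise the classical cytoplasmic inhibitors Nfkbia (IκBα), Nfkbib (IκBβ) and Nfkbie (IκBε), and the atypical nuclear members Nfkbid (IκBNS), Nfkbiz (IκBζ) and Bcl3. All 6 symbols were found. The RNA came from bone-marrow-derived macrophages, primary cells grown from the marrow of C57BL/6J mice, stimulated with Lipid A at 100 ng/ml for 20 min. Lipid A is the membrane anchor of bacterial lipopolysaccharide and the part of it that Toll-like receptor 4 recognises. After removal of ribosomal RNA, total RNA of the cytosolic fraction was sequenced in 3 libraries of this 1 condition, so the data hold no unstimulated sample and no other time. The labels number the libraries as biological replicates 1 to 3 but give them 1 donor identifier, and the SDs below are the spread between these samples, which may be partly technical.

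In resting cells the classical IκB proteins hold NF-kB dimers in the cytoplasm by covering their nuclear localisation signals. Toll-like receptor signalling activates the IκB kinase complex, which marks these inhibitors for ubiquitination and proteasomal breakdown, and the freed dimers enter the nucleus. NF-kB then drives transcription of Nfkbia, Nfkbie and other inhibitor genes, a negative feedback well known in macrophages. The atypical members bind NF-kB dimers on chromatin, where they raise or lower transcription of particular target genes.

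RefSeq held 7 promoters for 5 of the 6 members and none for Nfkbiz, which was not searched. Of these 5 members 3 held a match to the NF-kB consensus in the 250 bases upstream of a start site. Their promoters with a match are shown because feedback of NF-kB on its inhibitors acts through such sequences. The motif searched was 3 G, a purine, any 2 bases, 2 pyrimidines and 2 C, on both strands. Capitals mark the matches, and sequences are RefSeq's, build GRCm38.p6, written 5′ to 3′ on the strand of the gene, ending at the base before the start.
Nfkbia, chr12:55492648-55492897, minus strand: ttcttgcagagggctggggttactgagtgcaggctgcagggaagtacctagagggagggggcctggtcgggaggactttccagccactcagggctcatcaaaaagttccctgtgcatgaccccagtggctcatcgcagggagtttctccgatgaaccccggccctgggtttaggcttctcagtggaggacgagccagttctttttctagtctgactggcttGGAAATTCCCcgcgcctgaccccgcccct
Nfkbie, chr17:45555450-45555699, plus strand: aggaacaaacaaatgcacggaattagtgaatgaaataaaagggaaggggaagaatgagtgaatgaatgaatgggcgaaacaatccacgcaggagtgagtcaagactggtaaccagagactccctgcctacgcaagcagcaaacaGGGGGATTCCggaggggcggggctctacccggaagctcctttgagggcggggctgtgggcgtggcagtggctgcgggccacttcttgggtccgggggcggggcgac
Nfkbid, chr7:30422156-30422405, plus strand: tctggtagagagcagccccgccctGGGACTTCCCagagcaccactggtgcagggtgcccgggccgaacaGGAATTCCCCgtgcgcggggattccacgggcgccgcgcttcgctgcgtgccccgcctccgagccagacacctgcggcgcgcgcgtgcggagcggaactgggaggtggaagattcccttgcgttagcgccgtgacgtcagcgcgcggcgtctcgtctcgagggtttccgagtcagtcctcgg
In Nfkbia the match, GGAAATTCCC, lay 29 to 20 bases upstream of the start and fitted the motif on the antisense strand. In Nfkbie it lay 106 to 97 bases upstream on the sense strand. Nfkbid held 2 places, 226 to 217 bases upstream on both strands and 181 to 172 bases upstream on the antisense strand, before the middle one of its 3 starts in the table. The promoters of Nfkbib and Bcl3 and the other 2 Nfkbid promoters held no match in this window. Of 32851 RefSeq promoters of the same length, 2382 (7.25%) held a match and 1.03% held 2 places. These shares are per promoter and not per gene, and a gene with 3 promoters, such as Nfkbid, has more chances of a match. A match is a description of letters and not a site shown to be bound.

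The libraries held 27282444, 81509889 and 37131774 counts in gene rows in replicates 1, 2 and 3. Nuclear protein-coding genes took 24.97%, 22.0% and 19.7% of deposited TPM (a level corrected for transcript length, with a fixed total in each library). Levels between genes are therefore given below in deposited TPM, and comparisons between libraries in TPM rescaled so that nuclear protein-coding genes sum to the same total in each. The second transcript table gave lower TPM values, with a family sum of 58.4 TPM on average, against 138 TPM in the gene table used here. In deposited TPM the median gene was higher in replicate 1 by 0.18 (log2) over replicate 2 and 0.33 over replicate 3. All 8 macrophage markers were detected (1 TPM or more in all 3 libraries), with a summed level of 4882 to 7050 TPM. Of 5 neutrophil markers 3 were detected (sum 18.2 to 26.8 TPM), and Ly6g had at most 1 count in a library. None of the dendritic cell (5), T and NK cell (4) or fibroblast (3) markers passed 1 TPM in all libraries, and Cd3g had no count. Nuclear RNA was highest in replicate 3: Malat1 had 359, 248 and 763 TPM and Neat1 had 31.7, 23.6 and 83.9 TPM in replicates 1, 2 and 3. In bulk RNA, fewer cells of a type and less RNA per cell cannot be told apart.

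All 6 inhibitor genes were detected at 1 TPM or more in every library, against 40.5% of nuclear protein-coding genes (8915 of 22015). Nfkbia dominated the family. It had 182, 73.9 and 51.3 TPM in replicates 1, 2 and 3, or 102.5 ± 70.05 TPM (mean ± SD, n = 3), from 12401, 16526 and 5459 estimated reads. That was 76.3%, 72.9% and 68.4% of the summed TPM of the 6 genes, and 96.7% of protein-coding genes of mean 1 TPM or more had a lower mean. The gene lies at chr12:55489410-55492647 on the minus strand (mm10). It was highest in replicate 1 and lowest in replicate 3.

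The other classical inhibitors were far less abundant. Nfkbib (chr7:28758251-28767512, minus strand), whose product is degraded more slowly than IκBα in many cells, had 8.96, 8.40 and 5.96 TPM, a mean of 7.77 ± 1.60 TPM (SD, n = 3). It had 467, 1448 and 493 estimated reads. The gene overlaps Sirt2, on the opposite strand, through Nfkbib-203, which had no reads. The transcripts with reads, Nfkbib-202 and Nfkbib-201, begin at 28766514 and 28766640, outside Sirt2, whose first base is 28766735. Nfkbie (chr17:45555703-45563169, plus strand), whose product retains Rel-containing dimers in particular, was the lowest member with 3.76, 2.19 and 1.85 TPM, a mean of 2.60 ± 1.019 TPM (SD, n = 3). Nfkbia exceeded Nfkbib 20.4-fold, 8.80-fold and 8.61-fold in replicates 1, 2 and 3, and Nfkbie 48.5-fold, 33.7-fold and 27.7-fold. Both ratios were highest in replicate 1.

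Among the atypical members Nfkbiz (chr16:55811375-55838899, minus strand), a primary response gene whose product is needed for Il6 induction, had 27.2, 6.01 and 6.15 TPM, a mean of 13.1 ± 12.2 TPM (SD, n = 3). The SD was almost as large as the mean, and replicate 1 alone stood high. Bcl3 (chr7:19808462-19822770, minus strand), which binds p50 and p52 homodimers, had 8.91, 7.65 and 6.60 TPM, a mean of 7.72 ± 1.16 TPM (SD, n = 3). Its antisense neighbours Gm16175 and Gm16174 had no reads and 5 to 19 reads, and no source used here states whether the libraries keep strand. Nfkbid (chr7:30421732-30428746, plus strand), also a p50 partner in the nucleus, had 7.76, 3.16 and 3.14 TPM, a mean of 4.69 ± 2.66 TPM (SD, n = 3). Nfkbiz was 3.05-fold over Bcl3 in replicate 1, but 0.786-fold and 0.932-fold in replicates 2 and 3, so their order turned between libraries.

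By mean TPM the order was Nfkbia, Nfkbiz, Nfkbib, Bcl3, Nfkbid, Nfkbie. Nfkbia was above Nfkbiz in 3 of 3 libraries by 89.4 TPM, more than the larger SD of the pair (70.05 TPM). Nfkbiz and Nfkbib, and Nfkbib and Bcl3, kept their order in 2 of 3 libraries and did not differ beyond their spread. Bcl3 was above Nfkbid in 3 of 3 libraries by 3.03 TPM, against an SD of 2.66 TPM. Nfkbid was above Nfkbie in 3 of 3 libraries, but the mean difference of 2.09 TPM was below that SD. That SD is the spread of Nfkbid alone, and both genes of a pair were measured in the same libraries. Within libraries the log2 difference was 0.78 ± 0.26 for Nfkbid over Nfkbie (SD, n = 3). For Bcl3 over Nfkbid it was 0.85 ± 0.57 (SD, n = 3), so by this measure both pairs differed beyond their spread. As classes, the classical members exceeded the atypical ones by 0.15 ± 0.29 (SD, n = 3) in median log2(TPM + 0.1), with 0.01, 0.48 and -0.04 in replicates 1, 2 and 3. No difference of these medians beyond the spread was seen, and 3 libraries cannot give an exact two-sided sign-flip p below 0.25. With the mean of the log2 values in place of the median, to which Nfkbia contributes its full height, the difference was 0.57, 1.07 and 0.72 and thus positive in every library. Over libraries it was 0.79 ± 0.26 (SD, n = 3), beyond its spread. The summed TPM of the classical members was 4.45, 5.02 and 3.72 times that of the atypical ones in replicates 1, 2 and 3. The class result thus depends on how the members are summarised.

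**Figure D1:**
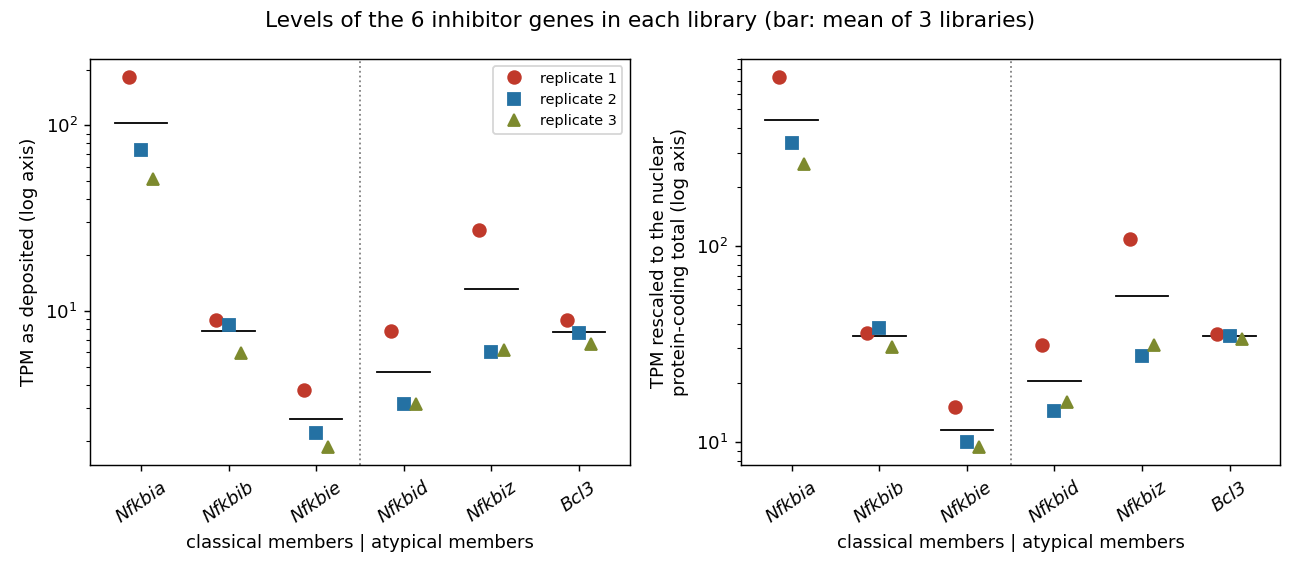
Level of each inhibitor gene in each library (points) with the mean of the 3 libraries (bar), in deposited TPM (left) and in TPM rescaled to the nuclear protein-coding total (right), both on log axes. Nfkbia is highest in every library, and replicate 1 stands above the others for Nfkbia, Nfkbie, Nfkbid and Nfkbiz in both panels.

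The members differed in how far they varied between libraries. In rescaled TPM, Nfkbiz had 109, 27.3 and 31.3 in replicates 1, 2 and 3, a range of 3.98-fold between the highest and lowest library (95% interval from counting error 3.81 to 4.17). Nfkbia had 730.3, 336 and 261 rescaled TPM, a range of 2.80-fold (2.71 to 2.89), and Nfkbid 31.1, 14.4 and 15.98, a range of 2.16-fold (1.96 to 2.39). In all 3 genes replicate 1 was the high library, and replicates 2 and 3 lay within 1.29-fold of each other. Nfkbie had 15.1, 9.95 and 9.42 rescaled TPM, a range of 1.60-fold (1.39 to 1.84). Nfkbib had 35.9, 38.2 and 30.3, a range of 1.26-fold (1.14 to 1.39), and Bcl3 35.7, 34.8 and 33.6, a range of 1.06-fold (0.957 to 1.18). The Bcl3 interval includes 1, so its libraries did not differ beyond counting error. These intervals cover counting error only.

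A range of 2-fold or more was therefore found in 3 of the 6 members, against 1.65% of the 9165 nuclear protein-coding genes of mean 1 TPM or more (151 genes). The median range was 1.88-fold over the members and 1.14-fold over those genes. Nfkbiz had a wider range than 99.8% of them, Nfkbia than 99.5%, Nfkbid than 98.7%, Nfkbie than 95.5%, Nfkbib than 78.2% and Bcl3 than 15.2%. Replicate 1 was highest for 5 of 6 members, all but Nfkbib, against 30.4% of genes (2786). Its level was 3.71 times the mean of the other libraries for Nfkbiz, 2.45 times for Nfkbia, 2.05 times for Nfkbid, 1.55 times for Nfkbie, 1.05 times for Nfkbib and 1.04 times for Bcl3. The counts rest on that library: without replicate 1, 0 of 6 members reached 2-fold, against 0.36% of genes, and the ranges were 1.29-fold for Nfkbia, 1.15-fold for Nfkbiz and 1.11-fold for Nfkbid. Replicate 1 also had the fewest counts and the lowest neutrophil marker sum (73 rescaled TPM, against 122 and 134.5). Of the 8 macrophage markers 2, Lyz2 and Csf1r, were highest in replicate 1, and the sum of those other than Lyz2 was 5202, 5257 and 5259 rescaled TPM in replicates 1, 2 and 3. The part of these in the members' range was not tested.

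**Figure D2:**
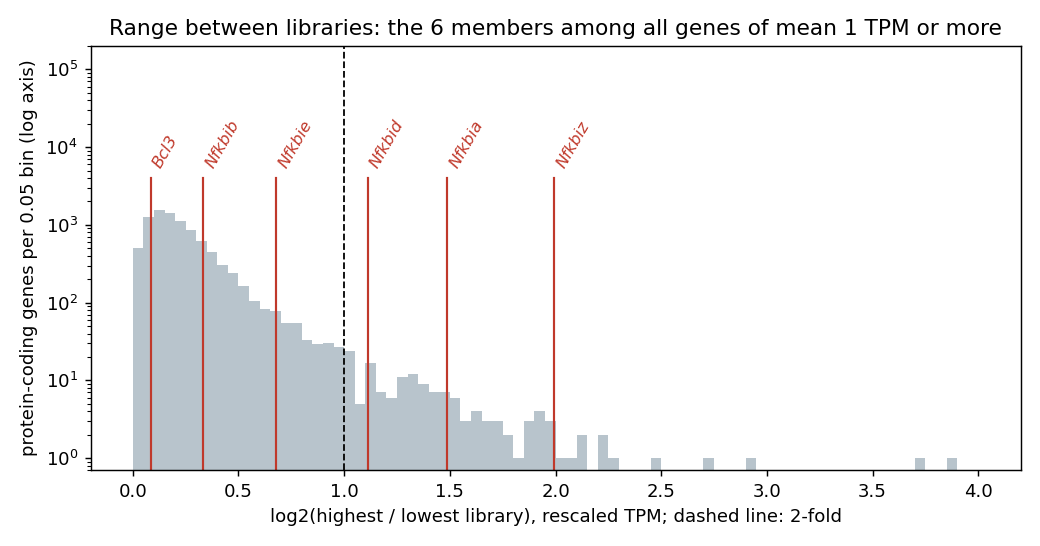
Number of nuclear protein-coding genes of mean 1 TPM or more (log axis) by log2 of the ratio of highest to lowest library in rescaled TPM, with the 6 inhibitor genes as lines and the 2-fold limit dashed. Bcl3 lies in the bulk of the genes, while Nfkbid, Nfkbia and Nfkbiz lie past the dashed line with 1.65% of all genes.

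Each member was made mostly of 1 transcript in the first transcript table, which was derived from alignments. Nfkbia-201 held 99.2 ± 0.532% of the Nfkbia transcript TPM, Nfkbib-202 97.6 ± 0.474% and Nfkbiz-204 97.3 ± 0.792% (SD, n = 3 each). Bcl3-201 held 83.4 ± 4.04% and Nfkbie-201 83.7 ± 4.52%. Nfkbid was the most divided, with 76.8 ± 9.55% in Nfkbid-203 (SD, n = 3). The second transcript table, derived directly from the reads, gave 93.3% for Nfkbia-201, 97.4% for Nfkbib-202, 93.4% for Nfkbiz-204 and 82.6% for Nfkbie-201, but 69.3% for Bcl3-201 and 43.7% for Nfkbid-203. In that table short noncoding Bcl3 transcripts, listed at 0 in the first, took part of the Bcl3 share (12.3% for Bcl3-204 and 7.37% for Bcl3-205).

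The transcripts of Nfkbiz and Nfkbid differ in their start. Nfkbiz-204 begins 16761 bases inside the gene, at position 55822138, and held 96.8%, 96.8% and 98.2% in replicates 1, 2 and 3. Coding transcripts from the outer start held 1.84%, 1.495% and 0.813%. In rescaled TPM Nfkbiz-204 had 105, 26.5 and 30.7, and the outer-start Nfkbiz-203 had 2.00, 0.409 and 0.254, so both were highest in replicate 1. Nfkbid-203, from the outermost start at 30421732, held 86.7%, 67.7% and 75.8%, and Nfkbid-201, from the innermost start at 30423275, held 10.2%, 26.9% and 22.6%. In rescaled TPM Nfkbid-203 had 27.0, 9.73 and 12.1, while Nfkbid-201 had 3.16, 3.86 and 3.61. In this table Nfkbid-203 was high in replicate 1 and Nfkbid-201 was not, but in the second table Nfkbid-201 was also highest there, with 5.8, 3.49 and 4.69 rescaled TPM. Nfkbid-202, whose start at 30422406 follows the promoter shown above with 2 places of the motif, was listed at 0 in the first table but held 26.3%, 27.9% and 36.9% in the second, so the tables disagree on which start was used.

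**Figure D3:**
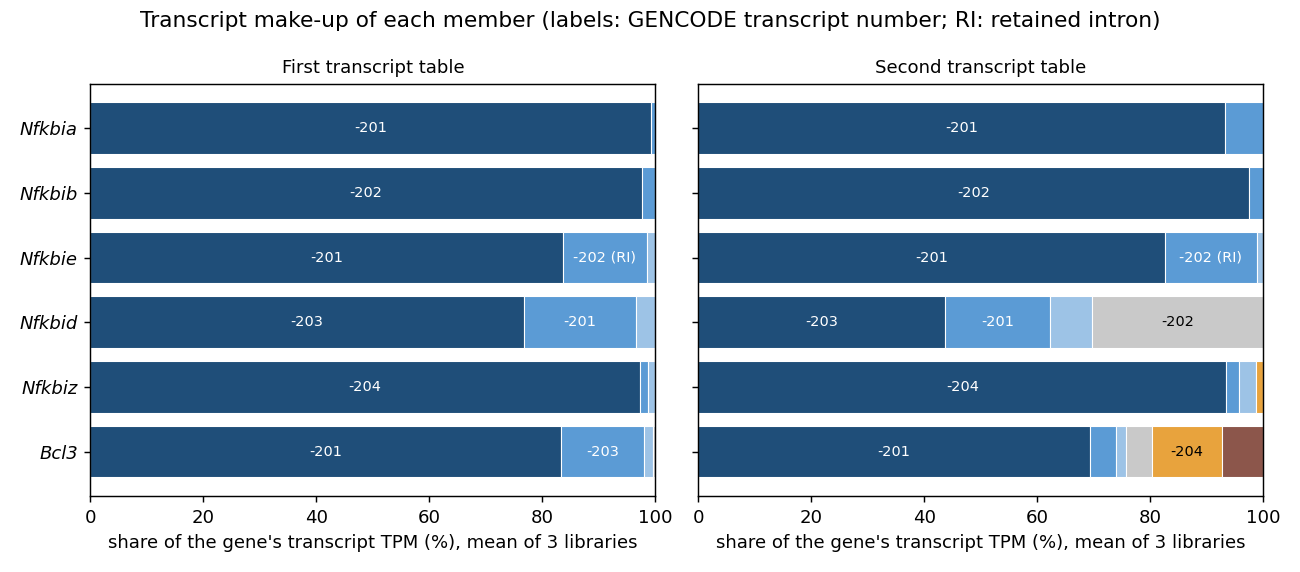
Share of each member's transcript TPM (percent, mean of 3 libraries) by GENCODE transcript, in the first transcript table (left) and the second (right). A single transcript fills most of each bar in the first table, and in the second the leading share of Nfkbid is 43.7%, where Nfkbid-202 appears, and that of Bcl3 69.3%.

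Transcripts annotated as retaining an intron were measured for 4 members. For Nfkbie they held 14.4%, 9.63% and 20.4% of its transcript TPM in replicates 1, 2 and 3, against a median of 1.40%, 1.32% and 2.90% over 5780 genes with such a transcript. Nfkbie was higher than 87.3% of those genes by mean. Nfkbid had 3.09%, 5.38% and 1.59%, Bcl3 1.57%, 1.18% and 3.33%, and Nfkbia 0.203%, 1.04% and 1.19%. The Nfkbid share rests on 3.29, 8.24 and 1.16 estimated reads and that of Bcl3 on similarly few (Bcl3-202 had 3.33, 5.48 and 6.47), so no order of libraries is read from them. The shares of Nfkbie, Nfkbia and the median gene were highest in replicate 3, the library with most Malat1 and Neat1. In the first table the levels of the intron-retaining transcripts of Nfkbie and Nfkbia were not highest there. That of Bcl3-202 was, with 0.561, 0.318 and 0.865 rescaled TPM in replicates 1, 2 and 3 on the few reads given above. In rescaled TPM Nfkbie-202 had 2.16, 0.954 and 1.93, and Nfkbia-202 had 1.48, 3.5 and 3.1, in replicates 1, 2 and 3. The part of nuclear RNA in these shares was not tested. The Nfkbia share rests on 8.67, 61.55 and 23.27 estimated reads. In the second table it was 3.53%, 7.27% and 9.25%, with the same order of libraries. There Nfkbia-202 itself had 25.6, 25.7 and 27.4 rescaled TPM, while Nfkbia-201 had 698, 328 and 268.

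The 3′ ends of the members differed in AU-rich pentamers (ATTTA), sequences known to shorten mRNA life when clustered. The leading transcript of Nfkbia held 2 in its 512-base 3′ UTR (3.91 per kb) and that of Nfkbiz 4 in 1355 bases (2.95 per kb). Nfkbid held 1 in 559 bases (1.79 per kb). Nfkbib, Nfkbie and Bcl3 held none in 71, 1102 and 410 bases. Over 9032 genes 66.2% held at least 1, with a median of 1.27 per kb. At least 1 pentamer was thus held by 3 of the 6 members, which is not above that share of genes. These were also the 3 members with a 2-fold range, a description over 6 genes. The part of the pentamers in that range was not tested. Nfkbia also held the longer nonamer TTATTTATT, present in 6.99% of genes. It is shown with its flanks, from the GENCODE M21 transcript on chromosome 12, with the nonamer in capitals.
Nfkbia 3′ UTR, from base 296: accacgttTTATTTATTgtgctttt

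The rest of the pathway was more even between libraries. Of 26 genes for NF-kB subunits, kinases, the ubiquitin ligase, other negative regulators and RNA decay factors, 25 were detected in all libraries, and 1 had a 2-fold range. Their median range was 1.15-fold, against 1.88-fold for the 6 inhibitor genes. All 5 subunit genes were detected, with Rela (p65) at 15.8 ± 2.57 TPM, Nfkb1 (p105, the precursor of p50) at 15.5 ± 2.74 TPM and Nfkb2 (p100, the precursor of p52) at 10.2 ± 2.10 TPM (SD, n = 3 each). By mean TPM Nfkbia was above each subunit and the other 5 inhibitors were below Rela, though in replicate 1 Nfkbiz, at 27.2 TPM, was above Rela at 18.0 TPM. All 3 kinase genes were detected: Ikbkb at 14.3 ± 1.09 TPM, Chuk at 7.83 ± 0.908 TPM and the scaffold Ikbkg at 6.23 ± 0.785 TPM (SD, n = 3 each). All 5 ligase genes were too, led by Rbx1 at 31.2 ± 4.84 TPM, Skp1a at 27.9 ± 5.30 TPM and Fbxw11, a substrate receptor for phosphorylated IκB, at 14.7 ± 2.42 TPM (SD, n = 3 each).

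Of 10 other negative regulators 9 were detected. Tnfaip3 (A20), a ubiquitin-editing enzyme and itself a target of NF-kB, had 27.6, 9.33 and 12.4 TPM, a range of 2.60-fold in rescaled TPM. Replicate 1 was its high library too, as for Nfkbia and Nfkbiz. Its partner Tnip1 had 16.2 ± 3.42 TPM and Nkiras2 14.1 ± 1.01 TPM (SD, n = 3 each). Nkrf missed the limit, with 1.10, 0.84 and 0.77 TPM. The 3 factors that bind Nfkbiz mRNA and promote its decay were detected: Rc3h2 (Roquin-2) at 7.58 ± 1.03 TPM, Rc3h1 (Roquin-1) at 6.25 ± 1.07 TPM and Zc3h12a (Regnase-1) at 5.53 ± 1.99 TPM (SD, n = 3 each). Of 4 genes known to need IκBζ for their induction in macrophages none was detected in all libraries. Il6 had 6, 7 and 1 reads, Il12b 38, 37 and 16 reads, and Lcn2 0.94, 1.15 and 1.13 TPM. In rescaled TPM Il12b had 1.84, 0.636 and 0.611, a range of 3.02-fold, and Il6 had a range of 2.36-fold on these few reads, both highest in replicate 1. With them, 3 of 30 genes over all the lists had a 2-fold range, against 11.5% of genes without the filter on low values. Csf3 had no read in any library, where a count of 0 allows up to 0.110, 0.0368 and 0.0808 CPM (3 counts).

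**Figure D4:**
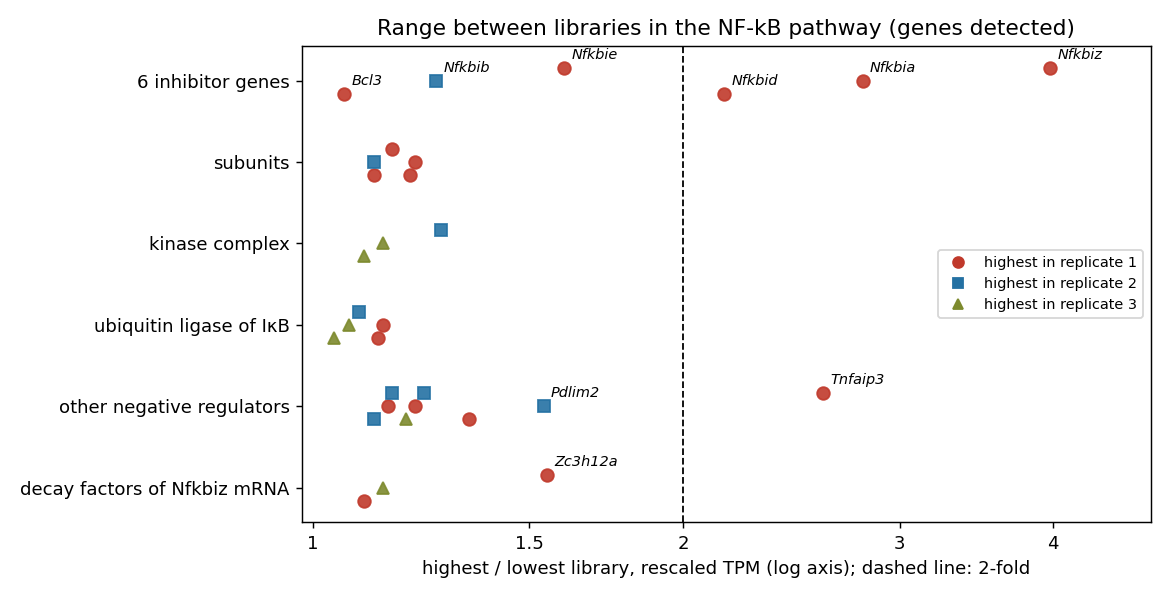
Ratio of the highest to the lowest library in rescaled TPM (log axis) for the 6 inhibitor genes and the detected genes of 5 pathway lists, coloured by the library that was highest. Tnfaip3 is the only detected gene of these 5 lists past the dashed 2-fold line, beside Nfkbid, Nfkbia and Nfkbiz.

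The genes closest in pattern over the 3 libraries were sought among 3396 protein-coding genes of mean 10 TPM or more, by Euclidean distance in log2(rescaled TPM + 1) centred on each gene's mean. For Nfkbia the nearest was Ppp1r15a (GADD34, a phosphatase subunit of the stress response) at a distance of 0.0503, with 653, 312 and 245 rescaled TPM. Marcksl1 (0.198), the transcription factor Irf1 (0.220), the receptor Tlr2 (0.251) and the guanylate-binding protein Gbp2 (0.287) followed. For Nfkbiz the nearest was Il1b (0.150), with 141, 41.2 and 43.9 rescaled TPM, then Tnf (0.242), with 662.5, 159 and 229. Marcksl1 (0.413), the chemokine Cxcl2 (0.497) and Irf1 (0.503) followed. Nfkbia and Nfkbiz lay 0.602 apart, and 2 genes stood in both lists. All 8 of these genes were highest in replicate 1, which follows from choosing them by nearness to 2 genes that were highest there. The 3 libraries give each pattern only 3 points.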

How the data were processed

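Each library had 3 tables on mm10 with GENCODE M21, per the deposited notes: genes and transcripts quantified from transcriptome alignments, and a second transcript table quantified straight from reads. No source used here names the tools. The authors' expected counts are estimates, often fractional, of the reads of each gene. The deposited TPM values sum to 1 fixed total per library, so abundant short RNAs lower every mRNA. The deposited FPKM values are per kilobase at a common depth. Groups and replicate numbers were taken from the labels.

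TPM was rescaled to the nuclear protein-coding total of each library, and the range is the highest over the lowest library. With 1 condition no contrast was tested. Detection meant at least 1 TPM in each of the 3 libraries. The 96 ERCC rows held 0, and a phiX row with 0.402%, 0.108% and 0.122% of counts stayed out. Expected counts were rounded for the scalings by edgeR 4.0.16 and DESeq2 1.42.0. Python 3.11.15 and R 4.3.3 were used. The members and gene lists were chosen with earlier results of these data known. Named genes were the members, those of each pathway list that had a 2-fold range, missed the detection limit or were among its 3 highest, and the 5 nearest in pattern to Nfkbia and to Nfkbiz. The result of 1 marker list is not reported here. RefSeq held promoters for 5 of 6 members, all but Nfkbiz.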

Additional observations from a re-analysis of the deposited data

How the results depend on the processing

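The number of members with a 2-fold range was 0 to 3 with 1 replicate left out (0 without replicate 1), 2 in the second transcript table, where Nfkbid had 1.96-fold, and 4 in deposited TPM, where Nfkbie joined at 2.03-fold. The share of all genes with such a range, 1.65%, was 0.36% to 1.16% with a replicate left out, 2.47% in deposited TPM, 6.24% at a limit of 1.5-fold (4 members) and 11.5% without the filter on low values. In deposited TPM all 6 members were highest in replicate 1, but so were 82.1% of genes. Without replicate 1 that count has no value. Members detected numbered 5 in the second table and 4 at 5 TPM, and 6 otherwise. The class difference was 0.79 with the mean of log2 values, ranged over -0.02 to 0.24 with a replicate left out, and was -0.12 in the second table, all but the mean within the SD of 0.29. The summed level of the family, 138 TPM on average, was 58.4 in the second table (Nfkbia 42.5, against 102.5) and 88.2 to 170.1 with a replicate left out. In other units it was 268.6 in FPKM and 599.7 in rescaled TPM. With both tables rescaled, the second gave Nfkbia 723.5, 353.5 and 295.7 in replicates 1, 2 and 3, against 730.3, 335.8 and 261.2. Nfkbid differed more, with 35.7, 18.2 and 23.5 against 31.1, 14.4 and 15.98. The leading isoform share, as the median of the 6 members in each library averaged over libraries, was 92.3%. It was 87.1% in the second table, 94.9% of expected counts and 92.1% to 92.6% with a replicate left out. The retained-intron share, as the median of the 4 members with such a transcript averaged over libraries, was 2.69%. It was 8.10% in the second table, 0.616% of expected counts and 2.40% to 2.87% with a replicate left out. Apart from the changes of unit, the cause was not tested for any of these. No paired analysis was possible because the series has 1 group. Depth limits Nfkbie most, with 341 to 821 reads.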
